A study of Homo sapiens with 4 samples.

Results

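The BCL2 family was examined as 10 genes of apoptosis control, found by symbol from the Ensembl identifiers of the count table, and all 10 were among its 58233 identifiers. They fall into 3 pro-survival genes (BCL2, BCL2L1 and MCL1), 5 BH3-only genes (BCL2L11, BBC3, PMAIP1, BMF and BID) and 2 effector genes (BAX and BAK1). Polyadenylated RNA of the established human pancreatic cancer cell lines MIA PaCa-2 and PANC-1, labelled WT, was sequenced 24 h after cannabichromene (CBC), a cannabinoid of hemp, or PBS. MIA PaCa-2 cells received 35 µM CBC and PANC-1 cells 30 µM, so the doses differed between the lines. Each of the 4 conditions is 1 library of 21742775 to 27903667 gene counts. The labels name PBS as the control while the methods speak of a vehicle and state acetonitrile as the solvent of CBC, so an effect of the solvent and one of CBC cannot be told apart.

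Apoptosis through mitochondria is decided by contacts among proteins of this family. BAX and BAK1, once active, form pores in the mitochondrial outer membrane, and the pro-survival proteins hold them and the BH3-only proteins in check. BH3-only proteins respond to stress, damage or loss of growth signals, and several of them are controlled through their transcription, whereas BID is known for activation by caspase-8 cleavage and BAX and BAK1 for changes of protein shape. Protein activity was not measured in these libraries, and the gene totals do not separate splice forms such as the long and short products of BCL2L1, MCL1 or BCL2L11.

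After CBC, the messages of the BH3-only genes BBC3 (PUMA) and PMAIP1 (NOXA) were far more abundant in MIA PaCa-2, at 9.81 and 8.91 times their PBS levels, and under 2-fold higher in PANC-1, at 1.73 and 1.92 times. BCL2L11 (BIM), BAK1, BCL2L1 (BCL-XL) and MCL1 were modestly higher in both lines and BID was lower in both. BAX differed little, and BCL2 and BMF were read too rarely for a difference to be detectable in PANC-1. In bulk RNA such as this, a change in the make-up of the surviving cells and a change of RNA per cell cannot be told apart. Log2 fold changes set each CBC library against the PBS library of its own line after trimmed mean of M-values (TMM) scaling, and the intervals in brackets are exact 95% intervals that cover counting error only. With 1 library per condition differences within a line have no replicate check and no test. A gene counted as readable in a line at 1 CPM (counts scaled to a common library size) or more in at least 1 of its 2 libraries, which 9 members reached in MIA PaCa-2 and 8 in PANC-1.

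Past a 2-fold difference, 2 members were higher and 0 lower in MIA PaCa-2, where 11.5% of all 14001 readable genes were higher and 8.97% lower. Among PANC-1 libraries 0 members passed 2-fold, where 7.71% of 14091 readable genes were higher and 7.03% lower. The median log2 fold change of the readable members was 0.69 in MIA PaCa-2 and 0.58 in PANC-1, beside medians of -0.01 and 0.02 over all readable genes. By class, the medians in MIA PaCa-2 were 0.31 for the pro-survival genes, 1.93 for the 4 readable BH3-only genes and 0.37 for the effectors. The last 2 medians lie between unlike genes. Their values were 3.29 (BBC3), 3.16 (PMAIP1), 0.71 (BCL2L11) and -0.77 (BID), and 0.06 (BAX) and 0.69 (BAK1). In PANC-1 cells the medians were 0.47 for the 2 readable pro-survival genes, 0.76 for 4 BH3-only genes and 0.41 for the effectors. The counting interval lay above 0 for 6 of 9 members in MIA PaCa-2 and for 7 of 8 in PANC-1, against 37.3% of all readable genes in each line. It lay below 0 for 1 member in each line, BID, against 39.1% and 35.9% of all readable genes. Such an interval narrows as counts grow, and the shares over all readable genes were not matched to the members for level.

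**Figure D1:**
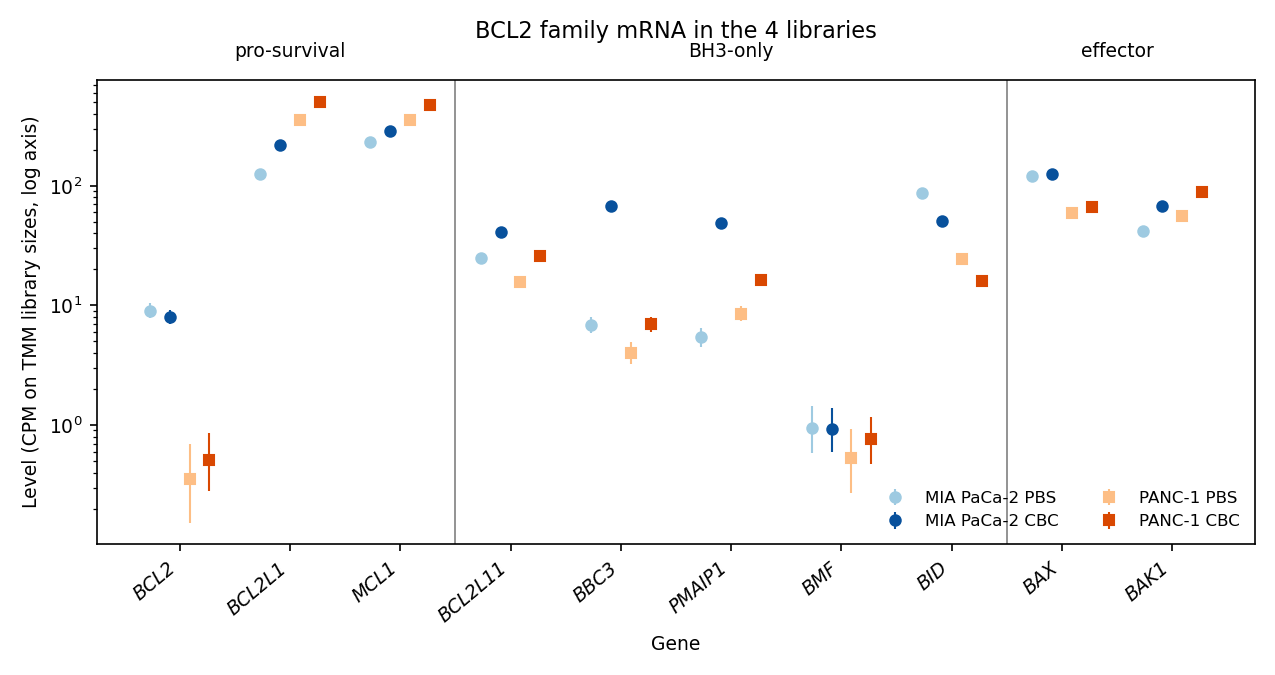
Level of each of the 10 genes in the 4 libraries, in CPM on TMM library sizes (log axis); bars are exact Poisson 95% intervals for counting error. BBC3 and PMAIP1 stand well above their PBS levels in CBC-treated MIA PaCa-2 cells (68.2 and 49.1 CPM), while BCL2 lies under 1 CPM in both PANC-1 libraries.

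BBC3 encodes PUMA, a BH3-only protein that binds all the major pro-survival proteins and is widely known as a target of p53 and of stress-responsive factors. Its level was 6.88 CPM in PBS-treated and 68.2 CPM in CBC-treated MIA PaCa-2 cells, and 4.0 and 6.99 CPM in PANC-1. The gene had 153 and 1688 counts in the first line and 91 and 191 in the second, so the CBC library was the higher one in both. The log2 fold change was 3.29 (3.07 to 3.56) in MIA PaCa-2 and 0.79 (0.44 to 1.18) in PANC-1. The gene lies on chromosome 19 of GRCh38 from 47220822 to 47232766, on the minus strand.

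PMAIP1 encodes NOXA, a small BH3-only protein known for binding MCL1. It was measured at 5.44 CPM with PBS and 49.1 CPM with CBC in MIA PaCa-2, and at 8.53 and 16.4 CPM in PANC-1. PANC-1 control cells thus held more of this message than MIA PaCa-2 control cells, and after CBC the order of the lines was the opposite. The log2 fold change was 3.16 (2.90 to 3.46) in MIA PaCa-2 and 0.94 (0.70 to 1.2) in PANC-1, just short of 2-fold. With library totals in place of TMM the PANC-1 value was just past 2-fold. PMAIP1 lies on chromosome 18 from 59899996 to 59904305, on the plus strand.

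The CBC response of both genes was larger in MIA PaCa-2. For BBC3 the log2 fold changes differed by 2.50 (2.05 to 2.95), and for PMAIP1 by 2.22, where the interval taken from the counts ran from 1.86 to 2.60. Of the 10 members, BCL2L1 was the other one with a larger change in MIA PaCa-2 beyond counting error, by 0.30 (0.22 to 0.37), and MCL1 the one with a smaller change, by -0.12 (-0.19 to -0.06). These intervals hold no variation between cultures, and no line difference could be tested across cultures. The doses differed, each close to the inhibitory concentration that the paper estimated for that line from viability. The paper also reported a larger share of annexin V-positive cells in CBC-treated MIA PaCa-2 than in CBC-treated PANC-1 cells. The part of dose or dying cells in the line differences was not tested.

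The promoters of BBC3 and PMAIP1 are shown because these genes had the 2 largest changes, and that of BAX as a member that differed little. Each run is the 250 bases before the RefSeq start (GRCh38.p14), read 5′ to 3′ on the strand of the gene, at chr19:47232668-47232917 (minus), chr18:59899746-59899995 (plus) and chr19:48954625-48954874 (plus). Capitals mark matches to any of 5 motifs searched on both strands.
BBC3: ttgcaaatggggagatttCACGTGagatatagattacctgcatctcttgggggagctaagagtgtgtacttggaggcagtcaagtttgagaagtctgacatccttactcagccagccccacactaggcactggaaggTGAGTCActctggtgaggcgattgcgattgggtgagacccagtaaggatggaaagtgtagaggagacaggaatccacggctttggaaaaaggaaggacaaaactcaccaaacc
PMAIP1: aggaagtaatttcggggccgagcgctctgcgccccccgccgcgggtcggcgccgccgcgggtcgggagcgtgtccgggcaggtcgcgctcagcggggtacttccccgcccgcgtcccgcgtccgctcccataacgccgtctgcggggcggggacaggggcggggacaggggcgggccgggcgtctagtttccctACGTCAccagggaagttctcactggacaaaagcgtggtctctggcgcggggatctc
BAX: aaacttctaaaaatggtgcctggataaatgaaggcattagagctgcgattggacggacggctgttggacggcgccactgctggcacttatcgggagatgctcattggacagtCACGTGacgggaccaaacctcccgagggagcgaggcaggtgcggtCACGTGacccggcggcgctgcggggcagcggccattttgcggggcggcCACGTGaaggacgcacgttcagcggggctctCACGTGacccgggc
The motifs were the CARE element of ATF4 and CHOP (TGATGNAA), the CRE core of ATF and CREB factors (TGACGT), the AP-1 element (TGANTCA), the E-box (CACGTG) and the FOXO element (GTAAACA), and no 2 matches overlapped. They occur in 3.15%, 7.10%, 6.57%, 6.34% and 2.98% of 35093 such windows. BBC3 held an AP-1 match at bases -113 to -107 from the start and an E-box at -232 to -227. PMAIP1 held a CRE core, read as ACGTCA on the printed strand, at -56 to -51. BAX held 4 E-boxes. Among the 9 members with a window, BCL2L11 had a FOXO match at -223 to -217, BID an E-box, and 0 had a CARE match. These are matches of letters and not shown binding sites, the GENCODE genes of BBC3 and BAX begin inside the windows shown, and MCL1 had no entry. The windows with the BCL2L11 and BID matches lie wholly inside the GENCODE genes. BID, BMF and BCL2L1 had more than 1 window, and the BID matches lie in such further windows.

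BCL2L11 encodes BIM, a BH3-only protein that binds the pro-survival proteins and can activate BAX directly. The MIA PaCa-2 levels were 25 CPM with PBS and 41.1 CPM with CBC, and the PANC-1 levels 15.7 and 25.9 CPM. The CBC libraries were the higher ones in both lines, by nearly the same factor of 1.64 and 1.65, or log2 fold changes of 0.71 (0.57 to 0.87) and 0.72 (0.54 to 0.91). Exons of MIR4435-2HG, a long noncoding RNA on the opposite strand, overlap 727 bases of its exons and had 1141 and 603 counts in MIA PaCa-2 and 1240 and 949 in PANC-1. The libraries were made with a directional kit. No source states whether counting used strand, so reads of these genes may not be fully separated there.

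BID, which links death receptors to mitochondria once caspase-8 has cut it, was the 1 member whose counting interval lay below 0, and it did so in both lines. Its level was 86.7 CPM with PBS and 50.7 CPM with CBC in MIA PaCa-2, and 24.2 and 15.9 CPM in PANC-1. The log2 fold changes were -0.77 (-0.88 to -0.67) and -0.60 (-0.79 to -0.42). PBS-treated MIA PaCa-2 cells held 3.58 times the BID level of PBS-treated PANC-1 cells (3.25 to 3.94). BMF, a BH3-only protein known from cells that lose attachment, had 21 and 23 counts in MIA PaCa-2 and 12 and 21 in PANC-1, under 1 CPM in all 4 libraries. Its log2 fold changes of -0.02 (-0.94 to 0.90) and 0.48 (-0.55 to 1.70) leave differences of nearly 2-fold in either direction undetectable in MIA PaCa-2.

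**Figure D2:**
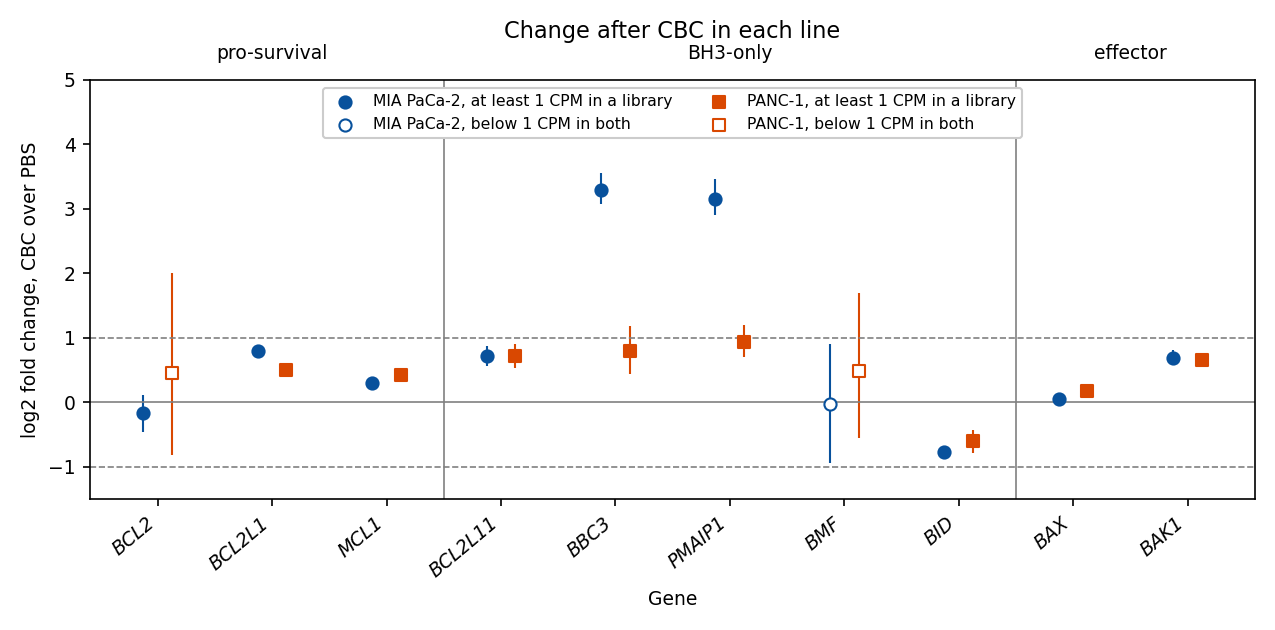
Log2 fold change after CBC in each line, with exact 95% intervals for counting error; dashed lines mark 2-fold and open symbols genes under 1 CPM in both libraries of a line. BBC3 and PMAIP1 stand past 2-fold in MIA PaCa-2 (3.29 and 3.16), no member does in PANC-1, and BID lies below 0 in both lines.

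Among the pro-survival genes, BCL2L1 encodes BCL-XL, which holds BAX, BAK1 and BH3-only proteins inactive. It was read at 124.8 CPM with PBS and 217.5 CPM with CBC in MIA PaCa-2, and at 354.6 and 503.4 CPM in PANC-1. Every PANC-1 value lay above every MIA PaCa-2 value, and within each line the CBC library was the higher one. The log2 fold changes were 0.80 (0.73 to 0.87) and 0.51 (0.47 to 0.55).

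MCL1 encodes a short-lived pro-survival protein that is the main partner of NOXA. Its level was 234.3 and 289.8 CPM in MIA PaCa-2 and 354.3 and 477.3 CPM in PANC-1. The log2 fold changes of 0.31 (0.26 to 0.36) and 0.43 (0.39 to 0.47) are the smallest of the pro-survival and BH3-only members whose intervals left out 0 in both lines. With library totals they were 0.37 and 0.50.

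BCL2, the founding pro-survival gene of the family, differed more between the controls of the lines than between the treatments of either line. It had 201 counts with PBS and 198 with CBC in MIA PaCa-2, and 8 and 14 in PANC-1. Its level in the controls was 9.04 CPM in MIA PaCa-2 and 0.352 CPM in PANC-1, 25.7 times higher in the former (12.8 to 60.3). The log2 fold changes were -0.17 (-0.47 to 0.12) and 0.45 (-0.81 to 2.0). Neither line showed a difference beyond counting error, and the PANC-1 interval allows a difference of about 4-fold.

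Of the effectors, BAX had 121.2 and 126.0 CPM in MIA PaCa-2 and 59.5 and 66.9 CPM in PANC-1. Its log2 fold changes were 0.06 (-0.02 to 0.13) and 0.17 (0.07 to 0.27), the latter beyond counting error but small. BAK1 had 41.7 and 67.3 CPM in MIA PaCa-2 and 56.4 and 88.8 CPM in PANC-1. Its log2 fold changes were 0.69 (0.57 to 0.81) and 0.65 (0.56 to 0.75). Of the pore-forming genes BAK1 thus had the larger log2 fold change in both lines. The 2 processed pseudogenes of BAK1 in the table held at most 2 counts in a library.

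Compared per exonic length, as CPM per kilobase (RPKM), the families of the lines were built differently. In PBS-treated MIA PaCa-2 cells the most abundant member was BAX at 46.8 RPKM, followed by MCL1 at 37.7, BCL2L1 at 29.7, BID at 19.6 and BAK1 at 18.8. BID and BAK1 did not differ beyond their counting intervals there. In PBS-treated PANC-1 cells BCL2L1 led at 84.5 RPKM, followed by MCL1 at 56.9, BAK1 at 25.5 and BAX at 23.0, with overlapping intervals of the last pair. In both controls BCL2L11, PMAIP1, BBC3, BMF and BCL2 were each under 4 RPKM.

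After CBC, PMAIP1 at 22.5 RPKM and BBC3 at 21.4 were the fifth and sixth most abundant members in MIA PaCa-2, after the seventh and eighth places in the control, and in both libraries their intervals overlapped. In that line BCL2L1 at 51.8, BAX at 48.7 and MCL1 at 46.6 RPKM then had overlapping intervals between neighbours. In PANC-1 cells the first 4 places were the same with and without CBC, and PMAIP1 at 7.52 RPKM took the fifth place from BID at 3.60. The BH3-only genes made up 17.4% of the summed per-length level of the 10 genes in PBS-treated and 25.7% in CBC-treated MIA PaCa-2 cells, and 6.44% and 6.18% in PANC-1. The pro-survival share was 42.1% and 41.3% in MIA PaCa-2 and 69.7% and 70.3% in PANC-1. The effectors held 40.6% and 33.0% in the first line and 23.9% and 23.6% in the second. With the longest transcript as length the effector share of the MIA PaCa-2 control (44%) was above the pro-survival share (37.1%), so the order of these classes there depended on the length used.

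**Figure D3:**
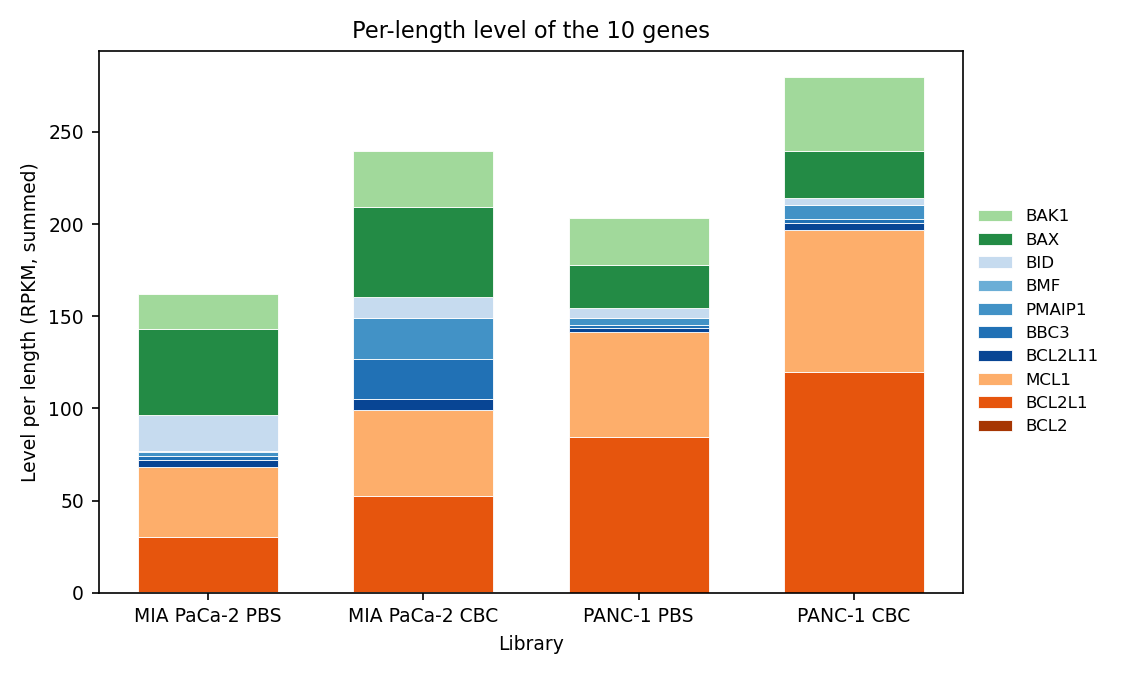
Summed per-length level of the 10 genes (RPKM, stacked from 0) in each library. The total went from 162.0 to 239.8 RPKM in MIA PaCa-2, where BBC3 and PMAIP1 (blue) become visible bands, and from 203.1 to 280.0 RPKM in PANC-1, where BCL2L1 and MCL1 (orange) fill most of each bar.

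Ratios of 2 members within a library need no library size, and 10 such pairs were compared between CBC and PBS. The ratio of PMAIP1 to MCL1 counts went from 0.0232 to 0.169 in MIA PaCa-2, 7.30 times higher (6.03 to 8.90), and from 0.0241 to 0.0344 in PANC-1, 1.43 times higher (1.2 to 1.70). The controls of the lines therefore started from nearly equal ratios. BBC3 to BCL2L1 was 5.69 times higher after CBC in MIA PaCa-2 (4.79 to 6.80) and 1.23 times in PANC-1 (0.952 to 1.60), where the interval includes 1.

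Other pairs had lower ratios after CBC or differed less. BAX to BCL2L1 went from 0.971 to 0.579 in MIA PaCa-2, a factor of 0.597 (0.557 to 0.640), and from 0.168 to 0.133 in PANC-1, a factor of 0.792 (0.734 to 0.854). BID to BCL2L1 had factors of 0.335 (0.308 to 0.365) and 0.463 (0.406 to 0.527). For BAX to BCL2 the factors were 1.17 (0.953 to 1.45) and 0.772 (0.280 to 1.98), both with 1 inside the interval. BAK1 to MCL1 was higher after CBC in both lines, by 1.30 (1.19 to 1.43) and 1.17 (1.09 to 1.26). BAK1 to BCL2L1 had factors of 0.926 (0.844 to 1.02) and 1.11 (1.03 to 1.19), on opposite sides of 1.

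**Figure D4:**
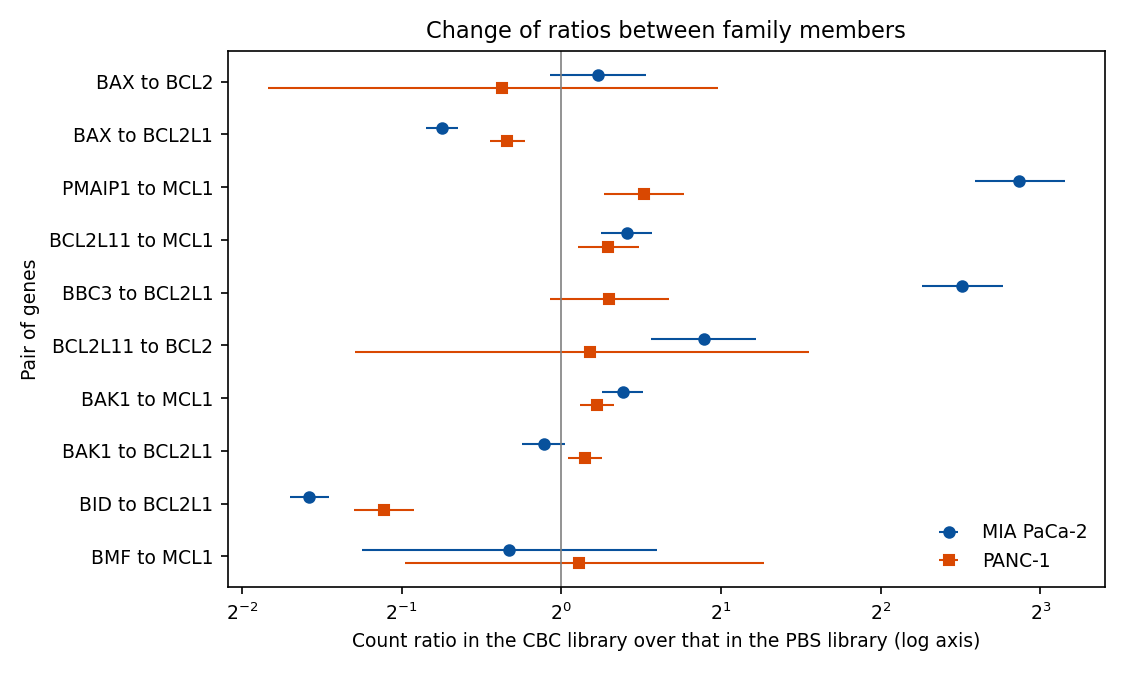
Count ratio of 2 members in the CBC library over that in the PBS library (log axis), with exact 95% intervals for counting error. PMAIP1 to MCL1 and BBC3 to BCL2L1 lie at 7.30 and 5.69 in MIA PaCa-2 and at 1.43 and 1.23 in PANC-1, while BAX to BCL2L1 and BID to BCL2L1 lie below 1 in both lines.

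A test of CBC across both lines, which then stand in for replicates, was made for 16381 genes by quasi-likelihood in edgeR with the cell line as a block. All 10 members were in this test and 0 had a Benjamini-Hochberg adjusted p under 0.05, which 4.71% of all genes did (2.26% higher and 2.45% lower). At an unadjusted p under 0.05 there were 6 members, beside 20.9% of all genes. PMAIP1 had a log2 fold change of 2.06 over both lines (standard error 0.53, edgeR adjusted p = 0.0718) and BBC3 of 2.12 (standard error 0.58, edgeR adjusted p = 0.0866), each higher in 2 of 2 lines. BCL2L1 followed with 0.66 (standard error 0.19, edgeR adjusted p = 0.101), BAK1 with 0.68 (0.21, 0.124), BID with -0.69 (0.23, 0.140) and BCL2L11 with 0.73 (0.25, 0.151). The test has 1 residual degree of freedom, and the calls depended on the tool. DESeq2 called 3 members, BCL2L1 (adjusted p = 0.0309), BBC3 (0.0433) and PMAIP1 (0.0305), all higher, beside 9.81% of the genes it gave an adjusted p (4.38% higher and 5.43% lower). The likelihood ratio test of edgeR called 2 members, BBC3 and PMAIP1, both higher, beside 10.9% of all genes (5.67% higher and 5.25% lower).

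Of 14 other family genes, 8 were readable in each line and 11 entered the test over both lines, which called 0 of them. The median log2 fold change was 0.27 in MIA PaCa-2 and 0.05 in PANC-1. BCL2L13, a mitochondrial relative of the family, had MIA PaCa-2 levels of 112.1 and 159.4 CPM and PANC-1 levels of 87.0 and 135.1 CPM, and the pro-survival gene BCL2L2 (BCL-W) had 47.8 and 63.4 and at 36.4 and 54.2 CPM. Past 2-fold were 2 genes, both BH3-only and both in MIA PaCa-2, which were named after their values were seen. In that line 11.5% of all readable genes were higher past 2-fold. HRK had 10 counts with PBS and 163 with CBC there, against 1 and 3 in PANC-1, and BIK had 10 and 51 counts, against 0 and 0. The remaining BH3-only gene of this list, BAD, was lower after CBC in both lines. Its log2 fold changes were -0.53 (-0.73 to -0.34) in MIA PaCa-2 and -0.41 (-0.59 to -0.24) in PANC-1. In the test over both lines HRK had a log2 fold change of 3.50 and an edgeR adjusted p of 0.0543.

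Transcription factors known to act on family genes formed a list of 15. It was chosen, like the other lists, with earlier results of these data known. Past 2-fold were 9 higher and 2 lower of 15 readable genes in MIA PaCa-2, and 3 higher and 2 lower of 13 in PANC-1. The shares over all readable genes were 11.5% and 8.97% in MIA PaCa-2 and 7.71% and 7.03% in PANC-1. The test over both lines called 4 that rose (DDIT3, ATF4, ATF3 and CEBPB) and 2 that fell (E2F1 and TP73). Over all genes it called 2.26% higher and 2.45% lower. DDIT3, which encodes CHOP, had 8.63 CPM with PBS and 186.6 CPM with CBC in MIA PaCa-2, against 23.4 and 195.9 CPM in PANC-1 (log2 fold change 3.74 over both lines, standard error 0.36, edgeR adjusted p = 0.00597). ATF3, a stress-induced factor, went from 3.87 to 151.1 CPM and from 3.91 to 58.5 CPM (4.6, 0.39, edgeR adjusted p = 0.00449). ATF4 rose with a log2 fold change of 1.27 (edgeR adjusted p = 0.0229) and CEBPB with 2.89 (0.00620). E2F1, a driver of cell cycle genes, went from 91.5 to 23.4 CPM and from 85.9 to 15.8 CPM (-2.20, 0.25, edgeR adjusted p = 0.00841). TP73, a relative of p53, had a log2 fold change of -2.09 and an edgeR adjusted p of 0.0473.

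Among 15 partners and activators of the family, 0 passed 2-fold in either line and 0 were called over both lines. The largest mean changes were in HSPA9, a mitochondrial chaperone (log2 fold changes of 0.86 and 0.47), and VDAC3, an outer membrane channel (-0.63 and -0.69). Of 15 genes for turnover of MCL1 and BH3-only proteins, 1 of 14 readable genes was lower past 2-fold in each line, USP13 in MIA PaCa-2 (-1.40) and CDC20 in PANC-1 (-1.3), and 0 were called. The shares of all readable genes lower past 2-fold were 8.97% in MIA PaCa-2 and 7.03% in PANC-1. Of 13 genes that act after the outer membrane is permeabilized, 1 was called over both lines, beside 4.71% of all genes. This was BIRC5 (survivin), which fell from 221.7 to 85.7 CPM in MIA PaCa-2 and from 247.1 to 97.5 CPM in PANC-1 (log2 fold change -1.35, standard error 0.20, edgeR adjusted p = 0.0155). BIRC3, an inhibitor of apoptosis of the NF-kB response, had log2 fold changes of 2.02 and 0.42 and an edgeR adjusted p of 0.118.

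**Figure D5:**
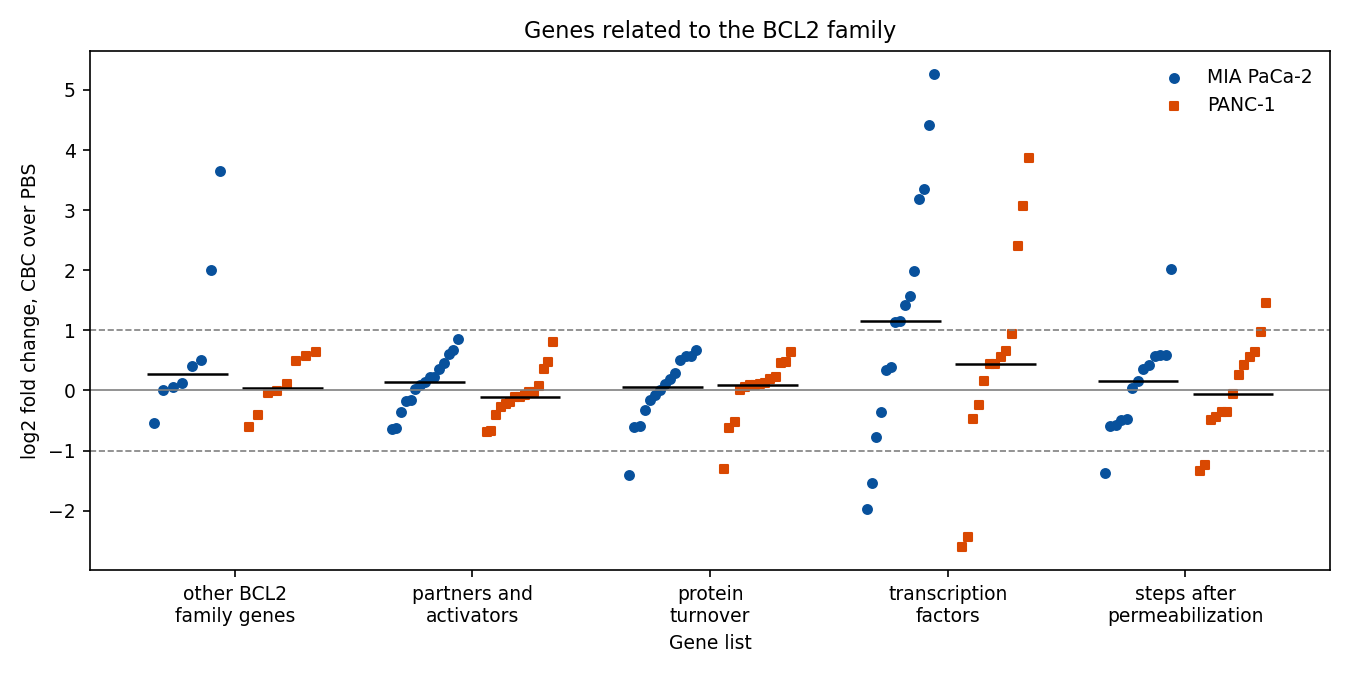
Log2 fold change after CBC of the readable genes of 5 lists related to the family, 1 point per gene and line, with the median of each list as a black line. The transcription factors spread most, from -1.97 to 5.26 in MIA PaCa-2 and from -2.60 to 3.87 in PANC-1.

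By Euclidean distance over the 2 log2 fold changes, the genes most like PMAIP1 among 10060 with a mean of at least 10 CPM were LMO4 (distance 0.20), ZFAND2A (0.24) and ABLIM3 (0.24). ABLIM3 had 1 and 30 counts in MIA PaCa-2, so its log2 fold change of 3.35 there rests on a control count under the floor (2.16 to 10.1), and it reached the mean level through PANC-1. BBC3 lay at 0.20 from PMAIP1, and the next member, BCL2L1, at 2.39. A likeness over 2 values from 4 libraries is a description only.

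As a check of the labels, the carcinoma keratins KRT8, KRT18 and KRT19 were at 160.7 to 1801 CPM and vimentin at 3249 to 4356 CPM in all 4 libraries. The epithelial markers EPCAM and CDH1 had at most 1 count in MIA PaCa-2. The keratin KRT7 was rarely read, with 2 and 52 counts in MIA PaCa-2 and 49 and 58 in PANC-1. Of the mesenchymal markers beside vimentin, ZEB1 was at 43.1 to 101.2 CPM. CDH2 had 0 counts in both MIA PaCa-2 libraries, against 725 and 507 in PANC-1. Leukocyte, endothelial and islet markers (PTPRC, PECAM1, INS and GCG) had 0 counts throughout, as had CDKN2A, a gene known to be deleted in both lines. The fibroblast collagen COL1A1 was at 0.495 to 0.526 CPM in MIA PaCa-2 and at 134 CPM with PBS and 46.4 CPM with CBC in PANC-1, and COL3A1 had 61 and 2 counts in MIA PaCa-2 and 0 in PANC-1. Mitochondrial genes took 5.81% of the counts with PBS and 3.86% with CBC in MIA PaCa-2, and 4.63% and 2.42% in PANC-1. This share was lower after CBC in both lines, and its part in the differences of the family genes was not tested.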

How the data were processed

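Per the labels and methods, reads were trimmed (cutadapt 2.7), mapped to GRCh38 by STAR and assigned to Ensembl release 89 genes by HTSeq, with the aligner version and the counting mode and strand not given in the sources used here. The authors deposited raw, unfiltered counts. A second deposited value per gene, a signal normalized to CPM with TMM library sizes in edgeR, differed from the CPM recomputed from the counts by a relative 6.84e-09 at most.

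Everything reported here was computed from the counts in R 4.3.3 with edgeR 4.0.16 and in Python with scipy 1.17.1. Of 58233 identifiers 57392 matched a symbol, and positions and exonic lengths came from GENCODE 44 on GRCh38. Exons of most members overlap those of another gene in that annotation, and beside MIR4435-2HG this concerns mainly ADAMTSL4 and ADAMTSL4-AS1 at MCL1. Log2 fold changes used a prior count of 2. Counting intervals were Clopper-Pearson for the ratio of 2 libraries, Poisson for a level and conditional (Fisher) for a change of a ratio. They cover counting error only. Apart from these intervals, a floor of 3 counts was set for a count of 0, or 0.108 to 0.138 CPM on library totals without TMM. The test over both lines (filterByExpr, cell line as a block, Benjamini-Hochberg) was tested on simulated data. Each planted change there was the same in both lines, so the simulation did not cover genes whose response differs between the lines. Libraries were paired by cell line, and deviations of paired libraries from the treatment means correlated with 0.923 across genes. Standard errors were taken from the F statistic. Alternatives changed scaling, prior count, filter, threshold, length, block and tool (DESeq2 1.42.0). Motifs were searched in RefSeq promoter windows.

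The members and lists were chosen with earlier results of these data known. Named beyond the 10 members are genes of a list that passed 2-fold in both lines in one direction or were called over both lines, the 2 with the largest mean change in a list at a mean of at least 10 CPM, and the 3 genes most like the member with the largest mean change. No test within a line was possible with 1 library per condition.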

Additional observations from a re-analysis of the deposited data

Results flagged for a closer look

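BCL2 had log2 fold changes of opposite sign, -0.17 in MIA PaCa-2 against 0.45 in PANC-1. The difference was not tested across cultures. The counting intervals of both values included 0, and the PANC-1 value rests on 8 and 14 counts.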

How the results depend on the processing

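Of 120 recomputed log2 fold changes of the 10 members under other scalings, prior counts and the deposited CPM, 117 stayed within their counting intervals and 1 of them turned in sign, BMF in MIA PaCa-2 cells, from -0.02 to 0.04 with library totals. The other 3 were BCL2L1 in PANC-1 cells and MCL1 in both lines, all with library totals. The numbers of members past 2-fold, 2 in MIA PaCa-2 and 0 in PANC-1 cells, changed with a threshold of 1.5-fold, to 6 and 5, and in PANC-1 cells with library totals, to 1 (PMAIP1). Over both lines the count of members called went from 0 to 3 with DESeq2, to 2 with edgeR's likelihood ratio test and to 3 without a filter on low counts (BCL2L1, BBC3 and PMAIP1, or the last pair). Over all genes, the numbers past 2-fold, 2864 in MIA PaCa-2 and 2078 in PANC-1 cells, were 5816 and 4847 without the filter, 1719 and 1187 with the whole counting interval past 2-fold, and 5856 and 4588 past 1.5-fold. The 771 genes called over both lines became 1296 with DESeq2, 1789 with the likelihood ratio test and 2063 without the filter. Without the pairing by cell line as a replicate block 0 genes were called, with 354 at an unadjusted p under 0.05, and the log2 fold change of BCL2 over both lines turned from 0.08 to -0.12. Past 2-fold in PANC-1 cells, 1087 genes were higher and 991 lower with TMM over all libraries, 1027 were higher and 1043 lower with TMM within each line and 1248 and 899 with library totals. With the longest transcript as length the pro-survival share of the per-length level in MIA PaCa-2 cells was 37.1% with PBS and 38.0% with CBC, higher after CBC where the exonic length gave it lower, and the effector share 44% and 35.6%. The causes of these shifts were not tested beyond what the settings themselves fix. Leaving out a line leaves no residual degree of freedom, so no such test was run. The depth limits BCL2 in PANC-1 cells and BMF in both lines.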

Other observations

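Some genes of the lists were read in 1 line alone, and they were named after their values were seen. BNIP3, a mitochondrial protein induced by hypoxia, had 0 counts in both MIA PaCa-2 libraries and 2169 and 3645 counts in PANC-1 cells with PBS and CBC. BCL2A1, a pro-survival gene of the family, had 0 counts in MIA PaCa-2 cells and 381 and 453 in PANC-1 cells. TP63, a relative of p53, showed the opposite, with 3850 and 5620 counts in MIA PaCa-2 cells and 0 in both PANC-1 libraries.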
